A study of Saccharomyces cerevisiae with 9 samples.

Results

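The genes described here are the 32 yeast genes that take up and assimilate sulfate, make methionine and cysteine, and control those steps. They were chosen by name from the pathway and not by a measured value, though with earlier results of these data known. Each of the 32 had 1 spot on both array platforms, among 5189 genes with a symbol on both. By role they are 10 genes of sulfate assimilation, 7 of the methionine cycle, 4 of transsulfuration, 6 transporters and 5 regulators. The samples were Saccharomyces cerevisiae S288C, a laboratory strain, grown in 600 ml of YPD (a rich medium) at 30 °C to an A660 of 1.0. For the recovering samples, 400 ml was frozen at -80 °C for 1 week without a cryoprotectant and then warmed in a 30 °C water bath for 25 min. Of this, 100 ml was taken 15, 30 or 60 min after complete thawing, with 3 arrays per time point from biological samples that the submitters call independent. The control on every array was an aliquot of 200 ml taken from the culture before freezing.

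Yeast reduces sulfate stepwise to sulfide, which is joined to a carbon chain made from homoserine to give homocysteine, the shared precursor of methionine and cysteine. Methionine is converted to S-adenosylmethionine, the cell's main methyl donor, and the methyl cycle returns homocysteine, while transsulfuration carries sulfur between homocysteine and cysteine. The activator Met4, with the DNA-binding factors Cbf1, Met31 and Met32 and the cofactor Met28, turns on most of these genes, and the F-box protein Met30 holds Met4 back when methionine and cysteine are plentiful, as they are in rich medium.

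Each value is a log2 ratio of the recovering sample (Cy5) over the culture before freezing (Cy3), normalised within its array, so 1 unit is a doubling relative to the bulk of the mRNA. The direction of the ratio is likely from the labels and not stated in the tables, and every sign would turn in the other case. The RNA came from whole cultures, so fewer cells with a transcript and less of it per cell cannot be told apart. The first platform carried replicate 1 at each time and a second platform replicates 2 and 3. All 36 correlations between arrays across genes were positive (0.086 to 0.70). A member had a value on 2 to 9 of the 9 arrays, and 10 members had all 9. The arrays held values for 43.8% to 96.9% of the members and for 50.2% to 98.0% of all genes. A gene was tested where all 3 arrays of a time point had a value, which was the case for 12 members at 15 min, 19 at 30 min and 16 at 60 min, and it passed at an adjusted p under 0.05 in limma.

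**Figure D1:**
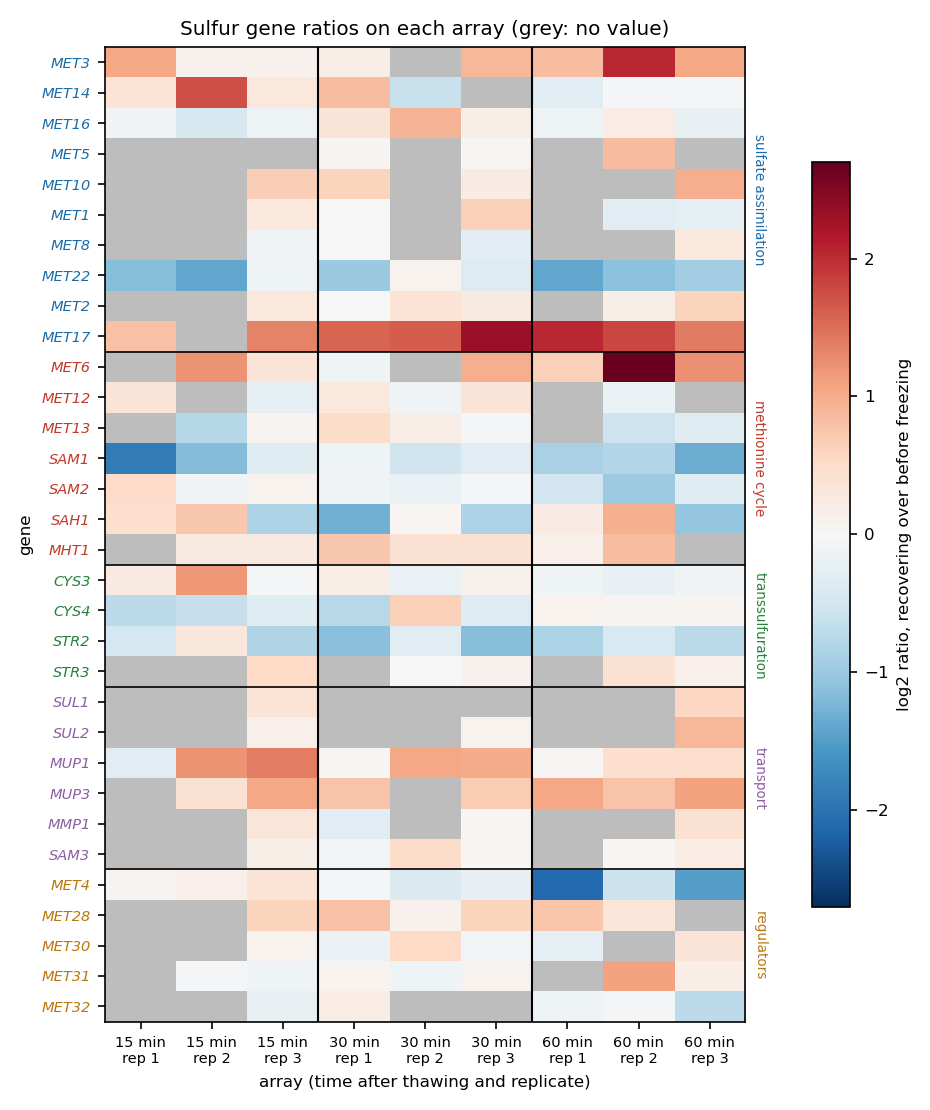
Log2 ratio of recovering over before freezing for the 32 genes (rows, coloured and divided by role) on the 9 arrays (columns, by time after thawing and replicate); grey marks a missing value. MET17 is above 0 on all 8 arrays with a value and SAM1 below 0 on all 9, and the sulfate permeases SUL1 and SUL2 are missing on most arrays.

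Members moved in both directions. At 60 min after thawing MET17, MET3, MET6 and the permease gene MUP3 were higher than before freezing, while MET4, MET22 and SAM1 were lower. At 30 min MET17 was higher, and at 15 min no member passed. Of the 16 members tested at 60 min, 4 were higher and 3 lower, beside 15.6% and 17.5% of all 2952 genes tested (33.2% in either direction). Whether the share of members that passed differs from that of all genes was not tested, and 16 members are few for it. Of the 19 tested at 30 min, 1 was higher and 0 lower, beside 2.29% and 2.05% of 3320 genes (4.34% in either direction). Of the 12 tested at 15 min, limma called 0 higher and 0 lower, beside 0.838% and 0.326% of 2148 genes (1.16% in either direction). An unadjusted p under 0.05 was found for 4 members at 15 min, 3 at 30 min and 9 at 60 min, beside 17.5%, 18.3% and 43.7% of all genes tested. The median over the tested members was 0.14, 0.11 and -0.087 at 15, 30 and 60 min, beside -0.053, -0.080 and -0.056 over all genes tested. Taking every gene with at least 1 value, the members' median was 0.19 (31 members), 0.12 (31) and 0.20 (32), so the sign at 60 min turned, and that of all genes was 0.015, -0.0033 and 0.021.

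**Figure D2:**
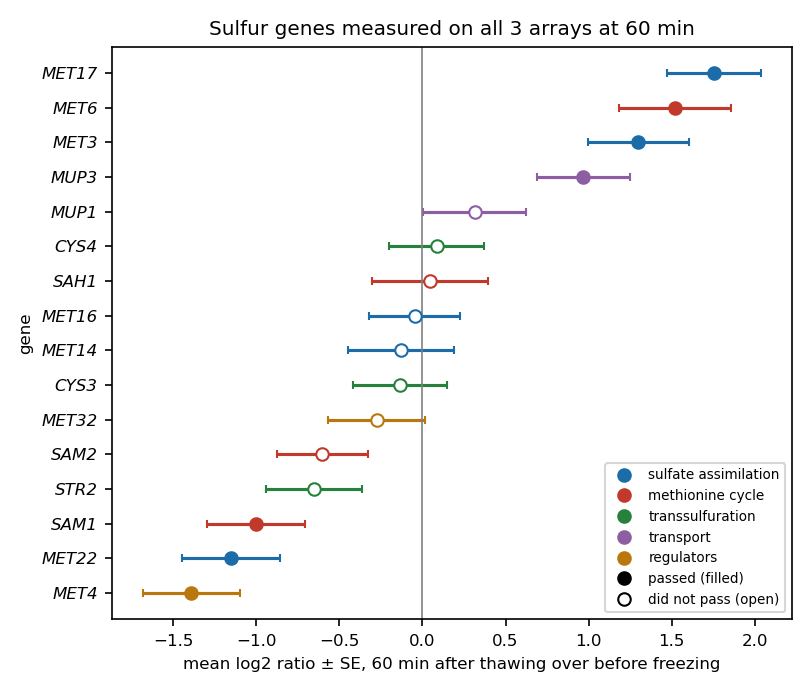
Mean log2 ratio at 60 min ± SE from limma for the 16 genes with a value on all 3 arrays, coloured by role; filled points passed at an adjusted p under 0.05. The means run from MET17 at 1.75 to MET4 at -1.39, with members of sulfate assimilation and of the methionine cycle on both sides of 0.

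Among the tested genes of sulfate assimilation, that of the last step had the highest mean at 30 and 60 min. MET17 (YLR303W) encodes O-acetylhomoserine sulfhydrylase, which joins sulfide to O-acetylhomoserine to make homocysteine. Its log2 ratio was 0.80 and 1.35 on replicates 1 and 3 at 15 min, with no value on replicate 2. It was 1.58, 1.63 and 2.32 on replicates 1, 2 and 3 at 30 min, and 2.05, 1.81 and 1.41 at 60 min. All 8 values were above 0, and the values at 30 and 60 min were all above those at 15 min. MET17 was 3.58-fold higher at 30 min than before freezing (1.84 ± 0.28, log2 mean ± SE, n = 3, adjusted p = 0.000157) and 3.37-fold higher at 60 min (1.75 ± 0.28, n = 3, adjusted p = 5.31e-05). At 30 min it had the 19th largest mean of the 3320 genes tested, and at 60 min the 64th of 2952. Its call at 30 min ended without replicate 3 (1.60, adjusted p = 0.0518), and that at 60 min held without any 1 replicate. The 2 values at 15 min had a mean of 1.07, which did not pass in the alternative that needs 2 values (adjusted p = 0.151).

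The first enzyme of the pathway was also higher at 60 min. MET3 (YJR010W) encodes ATP sulfurylase, which activates sulfate. Its log2 ratio was 1.05, 0.12 and 0.11 on replicates 1, 2 and 3 at 15 min and 0.17 and 0.90 on replicates 1 and 3 at 30 min. At 60 min it was 0.83, 2.03 and 1.04. All 8 values were above 0, and the replicate 1 value at 15 min lay within the range of those at 60 min. MET3 was 2.46-fold higher at 60 min (1.30 ± 0.30, n = 3, adjusted p = 0.00209). Without replicate 2 its mean was 0.94 (adjusted p = 0.0776).

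The next 2 steps did not pass at any time. MET14 (YKL001C), the adenylylsulfate kinase, had arrays all above 0 at 15 min (0.36, 1.74 and 0.29) and all below 0 at 60 min (-0.30, -0.0515 and -0.0393), with 0.83 and -0.60 on replicates 1 and 2 at 30 min. Its means, 0.80 ± 0.32 at 15 min and -0.13 ± 0.32 at 60 min (n = 3 each), did not pass (adjusted p = 0.194 and 0.780). MET16 (YPR167C), the phosphoadenylylsulfate reductase, was at -0.0892, -0.43 and -0.14 at 15 min, so all below 0. It was at 0.34, 0.91 and 0.16 at 30 min, all above 0, and on both sides at 60 min (-0.14, 0.20 and -0.20). Its highest mean, 0.47 ± 0.27 at 30 min, did not pass (adjusted p = 0.363). At 60 min the 95% intervals were -0.78 to 0.52 for MET14 and -0.60 to 0.51 for MET16, against 0.68 to 1.92 for MET3.

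MET22 (YOL064C) was the assimilation gene that fell. It encodes the phosphatase that breaks down the adenosine bisphosphate left over when sulfate is reduced. Its log2 ratio was -1.14, -1.41 and -0.14 on replicates 1, 2 and 3 at 15 min and -1.002, 0.10 and -0.34 at 30 min. At 60 min it was -1.40, -1.11 and -0.94. It was below 0 on 8 of 9 arrays, and its arrays at 60 min were closer together than at the other times (SD 0.23, against 0.67 and 0.56). MET22 was 2.22-fold lower at 60 min (-1.15 ± 0.30, n = 3, adjusted p = 0.00446), and without replicate 1 the adjusted p was 0.0567 (-1.03). At 15 min its mean of -0.90 ± 0.30 did not pass (adjusted p = 0.118). Of the alternatives, it passed only with the replicate number as a block (adjusted p = 0.0279).

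The other assimilation genes had few values and no call. The sulfite reductase subunits were above 0 wherever measured: MET10 (YFR030W) gave 0.66, 0.59, 0.22 and 0.98 on 4 arrays, and MET5 (YJR137C) at 0.0763, 0.0479 and 0.86 on 3. MET1 (YKR069W) and MET8 (YBR213W), which make the siroheme cofactor of that enzyme, lay between -0.27 and 0.65 on 5 arrays and between -0.30 and 0.29 on 4. MET2 (YNL277W), the homoserine O-acetyltransferase that makes the second substrate of Met17, was tested at 30 min (0.20 ± 0.28, adjusted p = 0.777) and ranged from -0.0134 to 0.60 on 6 arrays. On all 6 arrays that measured both, MET17 was above MET2, by a median of 1.42 log2 units.

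**Figure D3:**
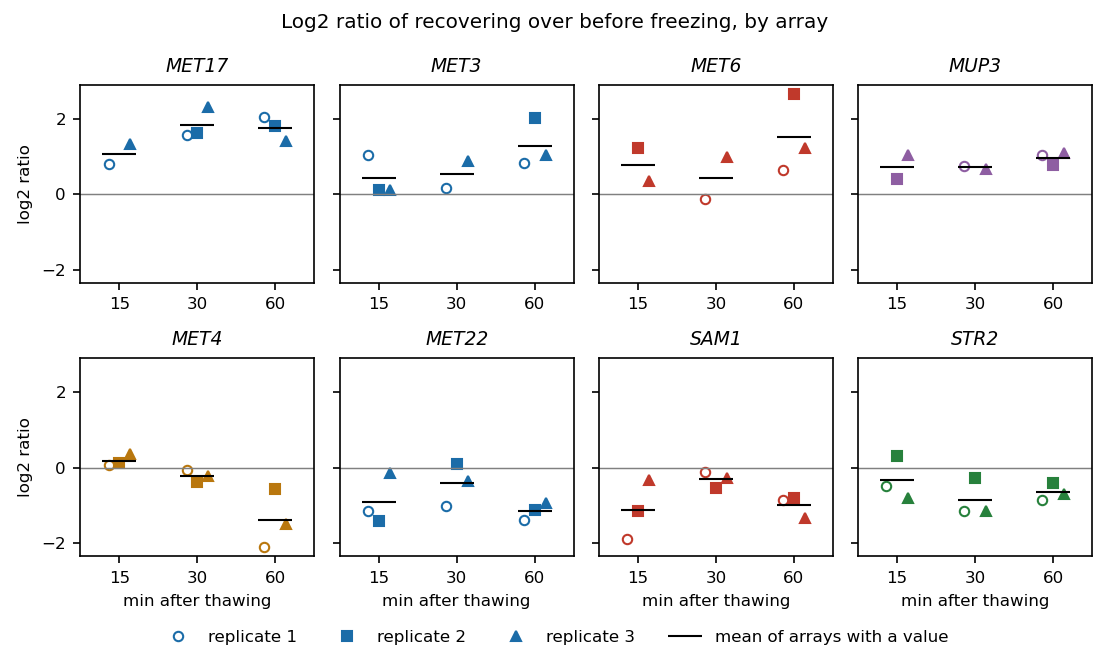
Log2 ratio on each array at 15, 30 and 60 min for the 7 genes that passed at 60 min and for STR2; circles, squares and triangles are replicates 1, 2 and 3, open for the first platform, and black bars are the means of the arrays with a value. MET4 lies near 0 at 15 min and at -2.11, -0.57 and -1.49 at 60 min, while MET17 is above 0 at every time.

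In the methionine cycle, the gene for methionine synthesis was higher and a gene for methionine use lower. MET6 (YER091C) encodes methionine synthase, which methylates homocysteine. Its log2 ratio was 1.22 and 0.35 on replicates 2 and 3 at 15 min, -0.12 and 0.99 on replicates 1 and 3 at 30 min, and 0.65, 2.68 and 1.23 on replicates 1, 2 and 3 at 60 min. The 3 arrays at 60 min were all above 0, with replicate 2 the highest. MET6 was 2.87-fold higher at 60 min (1.52 ± 0.34, n = 3, adjusted p = 0.00145), a value that was 0.94 without replicate 2 (adjusted p = 0.0968). MET12 (YPL023C) and MET13 (YGL125W) encode the methylenetetrahydrofolate reductases whose product supplies that methyl group. They were tested at 30 min only (0.18 ± 0.28 and 0.21 ± 0.28) and did not pass (adjusted p = 0.801 and 0.763). Their values at 60 min were below 0: MET12 gave -0.17 on replicate 2, and MET13 -0.56 and -0.32 on replicates 2 and 3. At 15 min MET12 gave 0.35 and -0.24 on replicates 1 and 3, and MET13 -0.77 and 0.075 on replicates 2 and 3.

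SAM1 (YLR180W), an S-adenosylmethionine synthetase, was below 0 on all 9 arrays. Its log2 ratio was -1.89, -1.16 and -0.33 on replicates 1, 2 and 3 at 15 min, -0.11, -0.53 and -0.27 at 30 min, then -0.87, -0.79 and -1.34 at 60 min. It was 2.00-fold lower at 60 min (-0.9997 ± 0.29, n = 3, adjusted p = 0.0110). That call ended without replicate 2 (-1.10, adjusted p = 0.0687) and without replicate 3 (-0.83, adjusted p = 0.120). At 15 min SAM1 had the lowest mean among the tested members (-1.13 ± 0.29) and missed the threshold (adjusted p = 0.0513). This mean passed with arrays set to 1 median absolute deviation (-1.10, adjusted p = 0.0406) and with array weights (-1.20, adjusted p = 0.0316). It also passed with the replicate number as a block (adjusted p = 0.00599), and in no other alternative. SAM2 (YDR502C), its close paralog with the same activity, was at 0.51, -0.10 and 0.098 at 15 min, within 0.2 of 0 at 30 min, and at -0.51, -0.98 and -0.32 at 60 min (-0.60 ± 0.27, adjusted p = 0.0883). SAM1 was below SAM2 on 8 of 9 arrays (median of SAM1 minus SAM2, -0.35). The paralogs are similar in sequence, and cross-hybridisation between their spots was not tested.

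SAH1 (YER043C), the S-adenosylhomocysteine hydrolase that returns homocysteine to the cycle, had no common direction. Replicates 1, 2 and 3 gave 0.44, 0.73 and -0.84 at 15 min, -1.29, 0.0558 and -0.83 at 30 min, then 0.22, 0.96 and -1.05 at 60 min. Its means of 0.11, -0.69 and 0.044 did not pass (adjusted p = 0.911, 0.289 and 0.932). Replicate 3 was between -1.05 and -0.83 at every time and replicate 2 between 0.0558 and 0.96. MHT1 (YLL062C), which methylates homocysteine from S-methylmethionine, was above 0 on all 7 arrays with a value (0.15 to 0.83) and at 0.52 ± 0.28 at 30 min (adjusted p = 0.326). Its neighbour on the chromosome, MMP1 (YLL061W), the S-methylmethionine permease, ranged from -0.28 to 0.42 on 4 arrays. Over the methionine cycle the median of the tested members was 0.11 at 15 min (3 genes), 0.039 at 30 min (6 genes) and -0.28 at 60 min (4 genes), and for sulfate assimilation it was 0.10 (4 genes), 0.34 (4 genes) and -0.046 (5 genes). Over every gene with at least 1 value, the median of the methionine cycle was 0.11, 0.18 and -0.17 (7 genes at each time). That of sulfate assimilation was 0.29 (9 genes), 0.27 and 0.34 (10 genes each), above 0 at 60 min where the tested genes were just below.

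No transsulfuration gene passed at any time in the main fit, though STR2 passed under some alternative settings. STR2 (YJR130C), cystathionine gamma-synthase, which starts the route from cysteine towards homocysteine, was the lowest of the 4 at 30 and 60 min. The arrays gave -0.48, 0.32 and -0.81 on replicates 1, 2 and 3 at 15 min, -1.14, -0.28 and -1.15 at 30 min, then -0.84, -0.42 and -0.70 at 60 min. It was below 0 on 8 of 9 arrays, and its means of -0.85 ± 0.29 at 30 min and -0.65 ± 0.29 at 60 min (n = 3 each) did not pass (adjusted p = 0.0845 and 0.0827). With the replicate number as a block, both passed (adjusted p = 0.0211 and 0.0366). The mean at 30 min also passed with arrays set to 1 median absolute deviation (-0.99, adjusted p = 0.0402). With array weights it passed as well (-0.96, adjusted p = 0.00479). CYS3 (YAL012W), cystathionine gamma-lyase of the opposite route, was above STR2 on all 9 arrays, and STR2 minus CYS3 had a median of -0.73. CYS3 was at 0.24, 1.17 and -0.0247 at 15 min and between -0.21 and 0.16 later, and its mean of 0.46 ± 0.28 at 15 min did not pass (adjusted p = 0.419).

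CYS4 (YGR155W), cystathionine beta-synthase, was below 0 on every array at 15 min (-0.70, -0.61 and -0.34) and just above 0 at 60 min (0.0989, 0.079 and 0.0782). At 30 min it was at -0.75 and -0.34 on replicates 1 and 3 and at 0.64 on replicate 2. Its lowest mean, -0.55 ± 0.29 at 15 min, did not pass (adjusted p = 0.322). STR3 (YGL184C), cystathionine beta-lyase, had values on the second platform only, from -0.00491 to 0.53 on 5 arrays, and was not tested. The median over the 3 tested transsulfuration genes was -0.33, -0.15 and -0.13 at 15, 30 and 60 min. With STR3 included, the median of all 4 was 0.068, -0.058 and -0.025, on the other side of 0 at 15 min.

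Among the transporters, the low-affinity methionine permease gene MUP3 (YHL036W) was higher at 60 min. The ratio was 0.41 and 1.03 on replicates 2 and 3 at 15 min, 0.76 and 0.68 on replicates 1 and 3 at 30 min, and 1.04, 0.78 and 1.09 on replicates 1, 2 and 3 at 60 min. All 7 values were above 0, and the times overlapped. MUP3 was 1.96-fold higher at 60 min (0.97 ± 0.28, n = 3, adjusted p = 0.00997). The call ended without replicate 1 (0.94, adjusted p = 0.0692) and without replicate 3 (0.91, adjusted p = 0.108).

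The high-affinity methionine permease gene MUP1 (YGR055W) differed between the platforms. On the second platform replicates 2 and 3 gave 1.20 and 1.37 at 15 min, 1.04 and 0.99 at 30 min, then 0.45 and 0.47 at 60 min. On the first platform it gave -0.28, 0.0254 and 0.0261 at 15, 30 and 60 min. The platforms did not overlap, and the second held the higher values at every time. Of the 1657 genes with 9 values, 1.57% were higher on the second platform without overlap, and MUP1 was the 1 such member of 10, chosen for mention after its values were seen. Lower on the second platform without overlap were 1.93% of those genes and 0 of the 10 members. Over the 3 arrays of each time its means of 0.77 ± 0.31, 0.69 ± 0.31 and 0.31 ± 0.31 did not pass (adjusted p = 0.205, 0.230 and 0.461). The platform's part in this difference cannot be told apart from that of the replicate number.

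**Figure D4:**
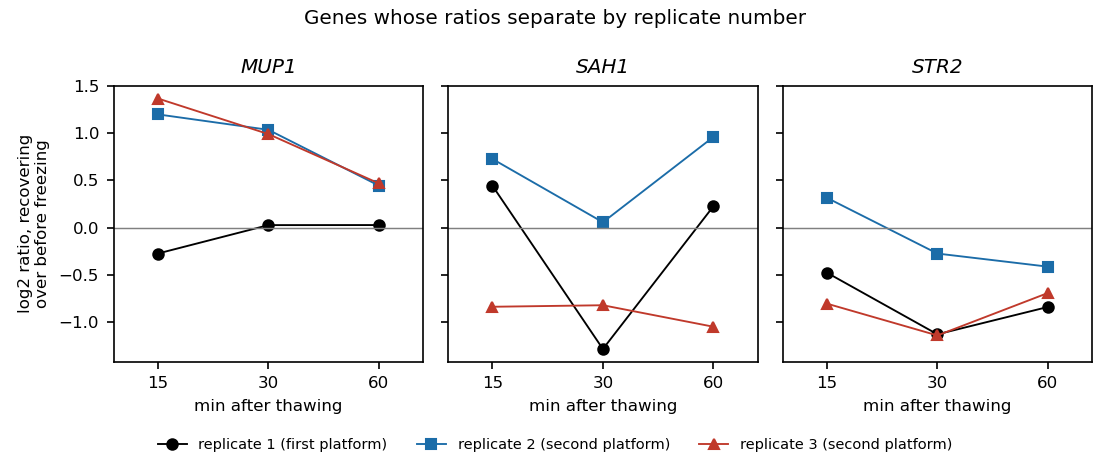
Log2 ratio of MUP1, SAH1 and STR2 at 15, 30 and 60 min, with a line for each replicate number; replicate 1 (black circles) was on the first platform and replicates 2 (blue squares) and 3 (red triangles) on the second. For MUP1 replicate 1 stays below the other two, and for SAH1 and STR2 replicate 3 stays below replicate 2.

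Replicate 3 was below replicate 2 at all times without overlap for SAH1 and STR2 among the 10 members with 9 values, beside 13.3% of the 1657 genes. The reverse direction was not counted, and both genes were chosen for mention after their values were seen. The sulfate permease genes were rarely measured. SUL1 (YBR294W) was at 0.37 at 15 min and 0.56 at 60 min, and SUL2 (YLR092W) at 0.14, 0.10 and 0.89 at 15, 30 and 60 min, each value from replicate 3 alone. SAM3 (YPL274W), the S-adenosylmethionine permease, was at 0.15 ± 0.28 at 30 min (adjusted p = 0.845) and between -0.0721 and 0.49 on 6 arrays.

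Of the regulators, the activator gene MET4 (YNL103W) fell late. The arrays gave 0.0796, 0.13 and 0.36 on replicates 1, 2 and 3 at 15 min and -0.0474, -0.38 and -0.22 at 30 min. At 60 min the values were -2.11, -0.57 and -1.49. The 3 times did not overlap, and all arrays were above 0 at 15 min and below 0 at 30 and 60 min. How many of all genes show such a separation was not counted. MET4 was 2.62-fold lower at 60 min than before freezing (-1.39 ± 0.29, n = 3, adjusted p = 0.000706), a call that held without any 1 replicate. Its means of 0.19 ± 0.29 at 15 min and -0.22 ± 0.29 at 30 min did not pass (adjusted p = 0.782 and 0.763).

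The other regulators did not pass. MET28 (YIR017C), the cofactor gene, was above 0 on all 6 arrays with a value (0.11 to 0.79), with a mean of 0.50 ± 0.29 at 30 min (adjusted p = 0.362). MET30 (YIL046W) ranged from -0.24 to 0.54 on 6 arrays and was at 0.11 ± 0.29 at 30 min (adjusted p = 0.893). MET31 (YPL038W) was near 0 at 15 and 30 min (-0.12 to 0.10) and at 1.09 and 0.19 on replicates 2 and 3 at 60 min. MET32 (YDR253C) was at -0.11, -0.025 and -0.70 at 60 min (-0.28 ± 0.29, adjusted p = 0.488).

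Recovery times were then compared with each other, to show when the members moved. MET4 was 2.99-fold lower at 60 min than at 15 min (-1.58 ± 0.41, adjusted p = 0.0257). It was the 1 member of 12 that passed, beside 3.37% of 1871 genes lower and 2.41% higher (5.77% in either direction), and its call ended without replicate 1 (-1.28, adjusted p = 0.184), 2 (-2.02, adjusted p = 0.195) or 3 (-1.44, adjusted p = 0.243). It also ended with all arrays set to 1 median absolute deviation (-1.40, adjusted p = 0.109). The call held in 6 of 10 alternatives. Of all genes, 108 passed in the main fit, 6, 1 and 2 without replicates 1, 2 and 3 in turn, and 4 with equal deviation. The log2 difference of 60 minus 15 min was 0.87 ± 0.43 for MET3, -0.77 ± 0.39 for SAM2 and -0.93 ± 0.45 for MET14, and none of these passed (adjusted p = 0.205, 0.213 and 0.201).

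Between 60 and 30 min 0 of 11 members passed in limma, beside 0.0407% of 2457 genes. MET4 alone had an unadjusted p under 0.05 (0.00794), as did 10.9% of all genes (MET4 -1.17 ± 0.41, adjusted p = 0.320). With the replicate number as a block, which the data bear out for these times, 33 genes passed and again 0 members. Between 30 and 15 min 0 of 10 members passed in limma, beside 0.0% of 1853 genes, and 0 members had an unadjusted p under 0.05, beside 2.81% of those genes. SAM1 had a difference of 0.82 ± 0.42 (adjusted p = 0.972). MET17 differed by -0.087 ± 0.40 between 60 and 30 min (adjusted p = 0.952).

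Genes next to the pathway passed at 60 min about as often as all genes. Of 33 such genes (homoserine supply, one-carbon metabolism, methionine salvage and polyamines, and other sulfur and methyl genes), 32 were on the arrays. Of the 24 tested at 60 min, 4 were higher and 4 lower, beside 15.6% and 17.5% of all genes tested. In the aspartate route that supplies homoserine, HOM6 (YJR139C), homoserine dehydrogenase, was at 1.30, 1.90 and 0.76 on replicates 1, 2 and 3 at 60 min (1.32 ± 0.30, 2.50-fold higher, adjusted p = 0.00167). HOM3 (YER052C), the aspartate kinase that starts this route, was at -1.37, -1.14 and -2.26 (-1.59 ± 0.34, 3.02-fold lower, adjusted p = 0.000863). The arrays of these enzymes of 1 route lay on opposite sides of 0. HOM2, the step between them, was at 0.087 ± 0.31 (adjusted p = 0.850). Without replicate 2 HOM6 was at 1.03 (adjusted p = 0.0622), and without replicate 3 HOM3 was at -1.26 (adjusted p = 0.0725).

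Methionine salvage recycles the methylthio group left by polyamine synthesis. Of its genes, ADI1 (1.03 ± 0.31, adjusted p = 0.0129) and MEU1 (0.80 ± 0.29, adjusted p = 0.0331) were higher at 60 min. MRI1 (-0.75 ± 0.30, adjusted p = 0.0550) and MDE1 (0.18 ± 0.28, adjusted p = 0.644) did not pass, and MRI1 was below 0 on all 7 arrays with a value. UTR4, not tested at 60 min, gave 1.58 and 1.03 on replicates 1 and 3. In polyamine synthesis, the spermine synthase gene SPE4 was lower (-1.19 ± 0.28, adjusted p = 0.00281). GSH1, which makes glutathione from cysteine in its first step, was higher (1.15 ± 0.34, adjusted p = 0.0116). SER3, the first enzyme of serine synthesis (-1.01 ± 0.28, adjusted p = 0.00685), and SAM4, which methylates homocysteine from S-adenosylmethionine (-0.74 ± 0.27, adjusted p = 0.0351), were lower. Each of these 6 calls ended without at least 1 replicate. GSH1 gave 0.15, 2.33 and 0.97 on replicates 1, 2 and 3. Leaving out replicate 2 put it at 0.56 (adjusted p = 0.298), and leaving out replicate 3 at 1.24 (adjusted p = 0.0743). The call of SPE4 ended without replicate 3 (-0.98, adjusted p = 0.0743), that of SER3 without replicates 2 and 3 in turn (-0.90 in both cases, adjusted p = 0.0665 and 0.103), and that of ADI1 without replicates 1 and 2 in turn (0.94 and 0.75, adjusted p = 0.105 and 0.145). MEU1 and SAM4 passed with none of the 3 replicates left out in turn (0.76 to 0.85 and -0.84 to -0.66). With arrays set to 1 median absolute deviation the calls of MEU1, SAM4 and ADI1 also ended (adjusted p = 0.0834, 0.119 and 0.0761), and with array weights those of MEU1 and SAM4 (adjusted p = 0.0547 and 0.0690). At 30 min 1 of 26 tested genes passed, beside 4.34% of all genes tested. It was the cysteine lyase gene IRC7 (-1.17 ± 0.30, adjusted p = 0.0226), and its call ended whichever replicate was left out (-1.27 to -1.10, adjusted p = 0.113 to 0.297) and with trend and robust eBayes (adjusted p = 0.0639). At 15 min 0 of 19 passed in limma, beside 1.16% of all genes tested, and an unadjusted p under 0.05 was found for 4, beside 17.5%.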

How the data were processed

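Messenger RNA of thawed and unfrozen yeast was compared on 9 two-colour arrays. Per the labels, the deposited log2 ratios were LOWESS-normalised by the authors with spots of flag value 0. The sources used here give no scanner, background correction or ratio direction. Without intensities, signal over background is unknown. Base 2 was read from the lowest value (-6.64), the log2 of 0.01. Spots were named through the platform annotation and RefSeq R64 (5185 of 5189 genes matched, names only), and spots of 1 gene were averaged.

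All 9 arrays were fitted in limma 3.58.1 (R 4.3.3), 1 mean per time point, two-sided, Benjamini-Hochberg over all genes tested. Missing values were not filled in. Where arrays shared a control culture, testing against 0 leaves out the control's spread. Same-numbered arrays deviated together between 30 and 60 min (r = 0.14 to 0.47 over 1657 genes). Between 15 and 60 min r was 0.022, 0.53 and 0.35 for replicates 1, 2 and 3, and between 15 and 30 min 0.039, 0.17 and 0.17. Arrays of different number gave -0.61 to 0.30 between 15 and 60 min. So pairing with 15 min was seen for replicates 2 and 3 and not for replicate 1. The main fit has no block. The report gives the block for 60 against 30 min and where it changed a member call. The fit was tested on simulated data, where 52.5% of genes changed by 1 log2 unit were recovered at 60 min (2952 genes tested) and 100% of those changed by 2. At 15 and 30 min 70.7% and 62.1% of those changed by 1 unit were recovered. At 60 min 9 unchanged genes were called. The simulated arrays varied independently, and at 60 min only 61 tested genes were changed by 1 unit and 50 by 2. In the data 979 genes passed at 60 min, so these rates need not hold there. The members and lists were chosen with earlier results of these data known. All 32 members are named, and of the neighbouring genes those that passed and some of the same routes that did not. Promoter motifs were planned and not analysed here.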

Additional observations from a re-analysis of the deposited data

Results flagged for a closer look

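Among the members, 4 genes had time points that lay on opposite sides of 0 on all 3 arrays or differed by the test. The share of all genes that meet this rule was not counted, so the 4 genes are only described. MET4 was lower at 60 min than at 15 min by the test (-1.58, adjusted p = 0.0257), and its arrays also lay on opposite sides of 0 at 30 and 15 min (-0.41, 30 minus 15 min, adjusted p = 0.972). MET14 was below 0 on all 3 arrays at 60 min and above 0 on all 3 at 15 min (difference -0.93, adjusted p = 0.201). CYS4 was above 0 at 60 min, at under 0.1 on each array, and below 0 at 15 min (difference 0.64, adjusted p = 0.336). MET16 was above 0 at 30 min and below 0 at 15 min (difference 0.69, adjusted p = 0.972). Apart from MET4 at 60 min, none of these differences passed. Outside the members, SER3 was lower at 60 min than at 15 min (-1.42, adjusted p = 0.0327), and its call ended without replicate 1, 2 or 3 (-1.48, -1.51 and -1.27) and with arrays set to 1 median absolute deviation (-1.36, adjusted p = 0.109).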

How the results depend on the processing

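Precision is limited by 3 arrays per time and by missing values: 20 of 32 members at 15 min, 13 at 30 min and 16 at 60 min were not tested. Under 10 alternatives, the 19 calls kept their direction in all 190 values and passed in 150. The count of members that passed at 15 min was 0, but 1 (SAM1) with arrays set to 1 median absolute deviation or with array weights, and 2 with a replicate block (SAM1 and MET22, adjusted p = 0.00599 and 0.0279). At 30 min it was 1, but 2 with equal deviation, 3 with array weights and 2 with a replicate block (MET17 and STR2, with MUP1 under weights), and 0 to 1 without a replicate. At 60 min it was 7, 8 with a replicate block (STR2 added), and 4 to 5 without a replicate. For 60 against 15 min it was 1, and 0 with equal deviation or without any replicate. The block changed no other member call. The count of all genes that passed at 15 min was 25, and 161 with the block, 62 with equal deviation, 14 after centring, 2 with trend and robust eBayes and 0 to 17 without a replicate. At 30 min it was 144, and 386, 328, 103, 60 and 20 to 35 there, and 463 with array weights. At 60 min it was 979, and 1230 with the block, 885 after centring, 777 with weights, 519 with equal deviation and 482 to 562 without a replicate. For 60 against 15 min it was 108, and 291 with the block, 58 after centring, 61 with weights, 4 with equal deviation and 1 to 6 without a replicate. For 60 against 30 min it was 1, and 33 with the block, 2 with weights and 0 under other settings except that leaving out the lowest value gave 1. Centring moved replicate 2 at 60 min by 0.18, the other arrays by under 0.1. Medians by role moved by more than the spread of the 3 arrays as follows. With 2 values needed, sulfate assimilation was at 0.43 (15 min), the methionine cycle at 0.18 (30 min) and transsulfuration at -0.025 (60 min). With equal deviation the methionine cycle was at -0.12 (15 min) and transsulfuration at -0.076 (60 min). Without 1 replicate, at 30 min sulfate assimilation lay between 0.18 and 0.42, the methionine cycle between -0.020 and 0.23, transsulfuration between -0.54 and 0.015 and the regulators between -0.0073 and 0.11. At 60 min the methionine cycle lay between -0.44 and 0.49 and transsulfuration between -0.16 and -0.034. The causes were not tested.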
